A study of Mus musculus with 9 samples.

Results

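The 10 genes described here encode proteins that store maternal mRNA in the oocyte and hold back or time its translation: Ybx2, Zar1, Zar1l, Cpeb1, Dazl, Pabpc1l, Patl2, Lsm14b, Eif4enif1 and Ddx6. They were taken by symbol from a table of 24228 genes, and all 10 had a row and passed the filter on low values (an FPKM, the fragments of a gene scaled for its length and the library's depth, of 1 or more in at least 3 libraries), as did 10801 genes in all. The values came from mouse oocytes that had finished growth and were still in germinal vesicle stage, the arrest in prophase that ends when meiosis resumes. The oocytes were taken from large antral follicles of C57BL/6 females, 46 h after 5 IU of PMSG, a gonadotropin that stimulates follicle growth.

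The 3 groups had 3 libraries each. In MG the Mtor gene was deleted in oocytes by Cre under the Gdf9 promoter, in MZ it was deleted in oocytes by Cre under the Zp3 promoter, and WT was wild type. Gdf9-Cre and Zp3-Cre are both active in oocytes, Gdf9-Cre from an earlier stage of follicle growth, and mTOR is the kinase of the complexes that control translation and cell growth. The mice were 23 days old by the series design and 6 months old by the sample labels, which was not resolved. Whether the libraries of a group stem from separate animals is not stated, so the p-values reflect the spread between libraries, and that spread may be technical.

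A growing oocyte makes and stores the mRNA that it later uses with transcription switched off, during meiotic maturation and the first division of the embryo. Stored mRNAs carry short poly(A) tails and sit in ribonucleoprotein particles with RNA-binding proteins, a helicase and proteins that block the cap-binding factor eIF4E. At maturation, CPEB1 and DAZL recruit many of these mRNAs to ribosomes, with tails lengthened in the cytoplasm. mTOR acts on the same step through the eIF4E-binding proteins. The RNA was amplified by the Smart-seq2 procedure, which primes on poly(A) tails, so in these data the amount of an mRNA and the length of its tail cannot be told apart, nor can fewer cells and less RNA per cell.

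The sequence through which CPEB1 reads its targets is the cytoplasmic polyadenylation element, searched for here as TTTTAT or TTTTAAT on the mRNA strand in the last 150 bases of the 3′ UTR of each gene's longest coding transcript (GENCODE M21, GRCm38). It was found in 1 of the 10 genes, against 11 of 17 mRNAs of a list of stored mRNAs and 25.8% of the 9282 tested genes with a 3′ UTR of at least 150 bases. The stored mRNAs were listed partly because CPEB1 is known to act on them, so their share is no result. The annotated 3′ UTR of Zar1l has 14 bases and that of Zar1 has 146, which leaves less to search. The element of Ybx2 lies 62 bases before the annotated transcript end. It is shown beside those of the 4 stored mRNAs that are named further on, with the element, and any AATAAA signal in the same stretch, in capitals. The last 150 bases of Ybx2 and of Btg4 held neither AATAAA nor the related ATTAAA, while 83.3% of the 9282 tested genes held at least 1 of them.
Ybx2: aagccaTTTTATgaactgtcatgtgccacc
Ddx4: gtttgcTTTTATaatatacagattttcctt
Cnot7: ggtacaTTTTATatcAATAAAaatac
Gdf9: ctgtggTTTTATgtgacggaagAATAAAct
Btg4: atccctTTTTATgtctttttaaaagtttga

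Promoters are shown for Zar1, Zar1l, Cpeb1 and Pabpc1l, the 4 genes with the lower values in MG as deposited. They come from RefSeq (GRCm38.p6), where 9 of the 10 genes matched, and cover 250 bases before the gene's start. An E-box (CANNTG on either strand), the sequence bound by the oocyte factor FIGLA with its partner, occurred in 66.2% of the 32851 promoters of the table, and at least 2 occurred in 31.8%. TAATTG or its reverse CAATTA, bound by the oocyte homeobox factor NOBOX, occurred in 7.17%. Zar1 had 2 E-boxes, Zar1l had 1 E-box and 2 CAATTA, Cpeb1 had 1 E-box, and Pabpc1l had 1 E-box. Ybx2, Dazl, Patl2, Lsm14b and Eif4enif1, the other genes that matched, each had a promoter with 1 E-box too. An E-box was therefore not particular to the 4 genes shown. For Zar1 and Cpeb1, whose 250 bases lie partly or wholly inside the gene as GENCODE draws it, 30 bases around each E-box are shown. Capitals mark the matches, which describe letters and not sites of binding.
Zar1, chr5:72581150-72581179, minus strand: tcatggcaacagCAGGTGgtagggcttttt
Zar1, chr5:72581092-72581121, minus strand: cagcgtggagggCAGCTGggctgcgctgat
Zar1l, chr5:150518165-150518409, minus strand: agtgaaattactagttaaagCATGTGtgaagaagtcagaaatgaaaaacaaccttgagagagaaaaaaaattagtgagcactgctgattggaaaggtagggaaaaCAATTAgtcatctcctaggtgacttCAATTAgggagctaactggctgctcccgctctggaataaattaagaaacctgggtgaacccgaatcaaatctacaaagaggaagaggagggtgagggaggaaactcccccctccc
Cpeb1, chr7:81454804-81454833, minus strand: gcggggccgacaCAGGTGctcctcgtcagg
Pabpc1l, chr2:164024974-164025223, plus strand: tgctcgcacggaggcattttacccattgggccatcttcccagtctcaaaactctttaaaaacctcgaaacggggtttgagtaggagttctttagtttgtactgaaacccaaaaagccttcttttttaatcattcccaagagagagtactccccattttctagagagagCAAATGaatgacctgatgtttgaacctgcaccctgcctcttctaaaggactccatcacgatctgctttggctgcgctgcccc

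Several facts of the libraries bear on these values. By the steps between low FPKM values, 1 fragment in a 1 kb transcript was worth 1.216 to 2.188 FPKM, and the libraries held about 528000 to 956000 fragments in genes. The FPKM of all genes summed to 498936 ± 64355 in MG, 670216 ± 10778 in MZ and 652537 ± 67110 in WT (SD, n = 3 each), and the lowest sum, 428329, was that of MG 3. The 9 oocyte markers (Gdf9, Bmp15, zona pellucida genes and others) summed to 10893 to 25281 FPKM in MG, 25419 to 26527 FPKM in MZ and 20793 to 24243 FPKM in WT. The 12 markers of granulosa and cumulus cells summed to 22.9 to 37.4 FPKM in MG, 22.8 to 26.2 FPKM in MZ and 20.3 to 34.1 FPKM in WT, with Foxl2 and Amhr2 listed at 0 in all 9 libraries. The 7 markers of theca and stroma summed to 17.5 to 36.2 FPKM in MG, 13.3 to 60.3 FPKM in MZ and 21.1 to 28.4 FPKM in WT. The 6 markers of blood and endothelium summed to 19.0 to 39.5 FPKM in MG, 9.25 to 33.4 FPKM in MZ and 17.4 to 31.3 FPKM in WT. The part of these markers in the results was not tested. Mtor had 5.25, 6.00 and 4.64 FPKM in the libraries labelled MG, 6.55, 4.67 and 4.39 FPKM in those labelled MZ and 3.25, 3.33 and 2.95 FPKM in WT. These values count the whole gene and so do not check the deletion.

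The levels of the 10 genes spanned more than 3 orders of magnitude. Because FPKM is divided by transcript length, the genes can be ranked. In WT oocytes the order was Zar1, Zar1l, Cpeb1, Dazl, Eif4enif1, Pabpc1l, Ybx2, Lsm14b, Patl2 and Ddx6. The WT ranges of Dazl and Eif4enif1 overlapped, as did those of Ybx2 and Lsm14b, so these neighbours did not differ beyond their spread. Zar1l stood above Cpeb1 in 0 of 3 MG, 1 of 3 MZ and 3 of 3 WT libraries, so this pair stood in one order in WT and in the other in MG. Among the tested genes the median percentile of Zar1 was 99.8 in MG, 99.9 in MZ and 99.8 in WT. That of Ddx6 was 39.2 in MG, 20.9 in MZ and 16.2 in WT. Together the 10 genes took 0.610 ± 0.229% of the FPKM sum in MG, 0.931 ± 0.039% in MZ and 0.828 ± 0.159% in WT (SD, n = 3 each), and the lowest share, 0.355%, was that of MG 3. Zar1 alone made up 60.8 ± 8.99% of the summed level of the 10 genes in MG, 74.2 ± 0.67% in MZ and 69.8 ± 5.43% in WT (SD, n = 3 each).

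**Figure D1:**
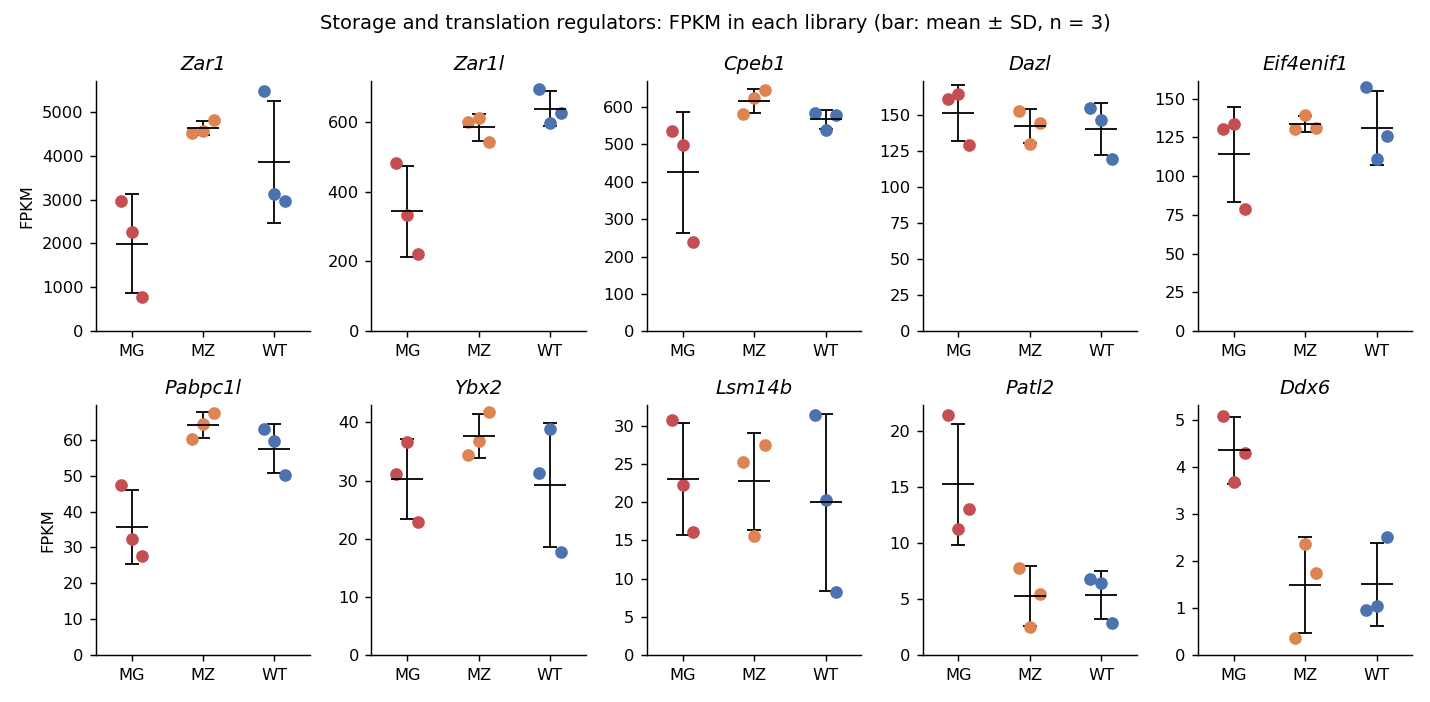
FPKM of the 10 genes in each library (points) of MG, MZ and WT, with the mean and SD of each group (bars, n = 3) and a y axis of its own from 0 for each gene. In MG, Zar1l, Cpeb1 and Pabpc1l lay below all WT values and Patl2 and Ddx6 above them, with adjusted p of 0.108 or more for each.

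Between MG and WT oocytes the genes split into those with lower values in MG (Zar1, Zar1l, Cpeb1 and Pabpc1l), those with higher values in MG (Patl2 and Ddx6), and those whose groups overlapped closely. None of the 10 genes passed the test (limma, adjusted p under 0.05), against 0.343% of all tested genes. An unadjusted p under 0.05 was found for 5 of the 10 genes, against 17.7% of all tested genes. Groups did not overlap for 3 of the 10 genes with lower values in MG (background 9.89%) and for 2 with higher values in MG (background 11.6%). The median log2 fold change of the 10 genes was -0.07 and that of all tested genes 0.04. With 3 libraries against 3, an exact two-sided permutation test of a single gene cannot give a p below 0.1.

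The regulators of poly(A) tails and translation come first. CPEB1 binds the element shown above, keeps its mRNAs silent in the arrested oocyte and drives their polyadenylation once maturation starts. Cpeb1 (chr7:81347026-81455465, minus strand) had 536, 499.6 and 239 FPKM in MG oocytes, 581, 623 and 646 FPKM in MZ oocytes and 585, 539 and 578 FPKM in WT oocytes. All MG values lay below all WT and all MZ values, but MG 1 was within 3 FPKM of the lowest WT library and MG 3 stood far below the others. MG against WT gave a log2 fold change of -0.50 (95% interval -1.09 to 0.08, adjusted p = 0.36). Without MG 3 it was -0.13 (adjusted p = 0.71), and with quantile normalization it turned to 0.0086.

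Pabpc1l (chr2:164025450-164050538, plus strand) encodes the poly(A)-binding protein of oocytes and early embryos, which binds the lengthened tails. It had 47.3, 32.4 and 27.5 FPKM in MG oocytes, 60.3, 64.4 and 67.5 FPKM in MZ oocytes and 63.1, 59.6 and 50.1 FPKM in WT oocytes. Every MG value was below every WT value and every MZ value. For MG against WT its log2 fold change was -0.70 (95% interval -1.19 to -0.21, adjusted p = 0.16).

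Dazl (chr17:50279395-50293636, minus strand) encodes a germ-cell protein that binds 3′ UTRs and promotes translation during maturation. It had 161, 164 and 129 FPKM in MG oocytes, 153, 129.5 and 144 FPKM in MZ oocytes and 154, 147 and 119.7 FPKM in WT oocytes. The 3 groups overlapped, and the log2 fold change of MG against WT was 0.11 (95% interval -0.28 to 0.50, adjusted p = 0.80).

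The next genes encode proteins that bind and stabilise maternal mRNA. ZAR1 is a zinc-finger RNA-binding protein that assembles stored mRNA around mitochondria in the oocyte, and Zar1 was the most abundant of the 10 genes in each of the 9 libraries. Zar1 (chr5:72576806-72581254, minus strand) had 2972, 2255 and 769 FPKM in MG oocytes, 4519, 4554 and 4809 FPKM in MZ oocytes and 5466, 3134 and 2970.5 FPKM in WT oocytes. MG 1 reached the level of the lowest WT library, so MG and WT touched, while all MG values lay below all MZ values. MG against WT gave a log2 fold change of -1.10 (95% interval -2.04 to -0.16, adjusted p = 0.22). Without MG 3, the library with the lowest value, it was -0.52 (adjusted p = 0.38).

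Zar1l (chr5:150507055-150518164, minus strand) encodes the paralog of ZAR1, which acts with it in oocytes. It had 480.5, 332 and 221 FPKM in MG oocytes, 599, 612 and 541 FPKM in MZ oocytes and 693, 596 and 624 FPKM in WT oocytes. Each MG library lay below every MZ and WT library. The log2 fold change of MG against WT was -0.96 (95% interval -1.49 to -0.42, adjusted p = 0.11), and without MG 3 it was -0.67 (adjusted p = 0.18).

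YBX2 (also called MSY2) is the germ-cell Y-box protein that binds mRNA throughout the oocyte and protects it from decay. Ybx2 (chr11:69935796-69941605, plus strand) had 31.2, 36.7 and 22.9 FPKM in MG oocytes, 34.4, 36.8 and 41.8 FPKM in MZ oocytes and 31.3, 38.8 and 17.7 FPKM in WT oocytes. WT spanned the whole MG range, and the log2 fold change of MG against WT was 0.09 (95% interval -0.56 to 0.74, adjusted p = 0.91).

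The remaining 4 genes encode the particle that represses translation. Patl2 (chr2:122120108-122186189, minus strand) encodes an oocyte protein of the PAT1 family that is needed for oocyte maturation. It had 21.4, 11.2 and 13.04 FPKM in MG oocytes, 7.79, 2.49 and 5.42 FPKM in MZ oocytes and 6.72, 6.45 and 2.86 FPKM in WT oocytes. All MG values lay above all MZ and all WT values. Set against WT, MG had a log2 fold change of 1.37 (95% interval 0.42 to 2.32, adjusted p = 0.15), the largest of the 10 genes. About 61 fragments in MG, 19 in MZ and 18 in WT lie behind these values, each summed over 3 libraries. The locus holds B2m and Trim69 on the opposite strand, and Patl2 shares 0 exon bases with either. B2m had 108, 54.2 and 57.4 FPKM in MG, 139, 154 and 79.8 FPKM in MZ and 99.8, 101 and 109 FPKM in WT. MG 1 was the highest of MG for B2m as for Patl2. MZ 2 and WT 3 were the highest of their groups for B2m and the lowest for Patl2. Trim69 was listed at 0 in all 9 libraries. Whether reads of B2m entered the values of Patl2 was not tested.

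DDX6 is the RNA helicase of processing bodies, which joins PAT1, LSM14 and 4E-T proteins on repressed mRNA. Ddx6 (chr9:44604892-44640731, plus strand) had 5.09, 3.67 and 4.30 FPKM in MG oocytes, 0.365, 2.35 and 1.75 FPKM in MZ oocytes and 0.947, 1.04 and 2.51 FPKM in WT oocytes. As for Patl2, each MG library was above every MZ and WT library. Ddx6 had a log2 fold change of 1.14 for MG against WT (95% interval 0.17 to 2.12, adjusted p = 0.22). About 47 fragments in MG (95% Poisson interval 34.5 to 62.5), 17 in MZ (9.90 to 27.2) and 13 in WT (6.92 to 22.2) lie behind the 3 libraries of each group. These intervals cover counting error only, since reads amplified by PCR are not independent molecules.

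Lsm14b (chr2:180024987-180035465, plus strand) encodes an Sm-like protein of repressed particles. It had 30.7, 22.3 and 16.2 FPKM in MG oocytes, 25.2, 15.6 and 27.5 FPKM in MZ oocytes and 31.4, 20.3 and 8.23 FPKM in WT oocytes. The groups overlapped across most of their range (log2 fold change 0.33 for MG against WT, 95% interval -0.62 to 1.28, adjusted p = 0.73). Eif4enif1 (chr11:3202392-3244588, plus strand) encodes 4E-T, which binds the cap-binding protein eIF4E and keeps it from starting translation. It had 130.5, 133 and 78.8 FPKM in MG oocytes, 130.5, 139.6 and 131 FPKM in MZ oocytes and 158, 111 and 126 FPKM in WT oocytes. Both MG 1 and MG 2 lay inside the WT range and MG 3 lay below it. The log2 fold change of Eif4enif1 for MG against WT was -0.22 (95% interval -0.72 to 0.28, adjusted p = 0.65). Its deposited locus is shared by 8 other genes, among them Drg1 on the opposite strand, with which it shares 0 exon bases. Whether reads of these genes entered the values of Eif4enif1 was not tested.

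Between MZ and WT oocytes none of the 10 genes differed beyond the spread of the libraries. None passed the test (background 0.037%), 0 had an unadjusted p under 0.05 (background 6.3%), and 0 had groups without overlap (background 6.52% for lower and 5.67% for higher values in MZ). The log2 fold changes ran from -0.13 for Zar1l to 0.42 for Ybx2, and the smallest adjusted p was 0.85. The intervals differ in what they leave room for. That of Dazl ran from -0.37 to 0.42 and that of Zar1l from -0.67 to 0.41. That of Patl2 ran from -1.01 to 0.89 and that of Ddx6 from -1.03 to 0.92. The values of Patl2 (1.37) and Ddx6 (1.14) for MG against WT lie above these intervals. Their own intervals (0.42 to 2.32 and 0.17 to 2.12) overlap them, and both comparisons use the same WT libraries. This is therefore no test of MG against MZ, which follows below.

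MG set directly against MZ compares levels between the 2 Cre lines, without the WT libraries entering the difference. Here 4 genes had lower values in MG without overlap, namely Zar1, Zar1l, Cpeb1 and Pabpc1l (background 12.3%), and 2 had higher values, Patl2 and Ddx6 (background 12.8%). None of the 10 passed (background 0.13%), and 6 had an unadjusted p under 0.05 (background 17.6%). The log2 fold change was -1.42 for Zar1 (95% interval -2.36 to -0.48, adjusted p = 0.12) and -0.83 for Zar1l (95% interval -1.37 to -0.29, adjusted p = 0.12). It was -0.62 for Cpeb1 (95% interval -1.21 to -0.03, adjusted p = 0.25) and -0.86 for Pabpc1l (95% interval -1.35 to -0.37, adjusted p = 0.088). Patl2 had 1.43 (95% interval 0.48 to 2.38, adjusted p = 0.12) and Ddx6 1.19 (95% interval 0.22 to 2.17, adjusted p = 0.19). Without MG 1, Zar1l (-1.10, adjusted p = 0.038) and Pabpc1l (-1.07, adjusted p = 0.039) passed. In that fit 210 genes of the whole table passed (39 higher and 171 lower in MG), against 14 with all 9 libraries. Without MG 3 the values shrank to -0.84 for Zar1 (adjusted p = 0.20), -0.55 for Zar1l (adjusted p = 0.24) and -0.25 for Cpeb1 (adjusted p = 0.48). Dazl, Ybx2, Lsm14b and Eif4enif1 had values from -0.33 to 0.09, and their groups overlapped. This comparison and that with WT share the MG libraries.

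**Figure D2:**
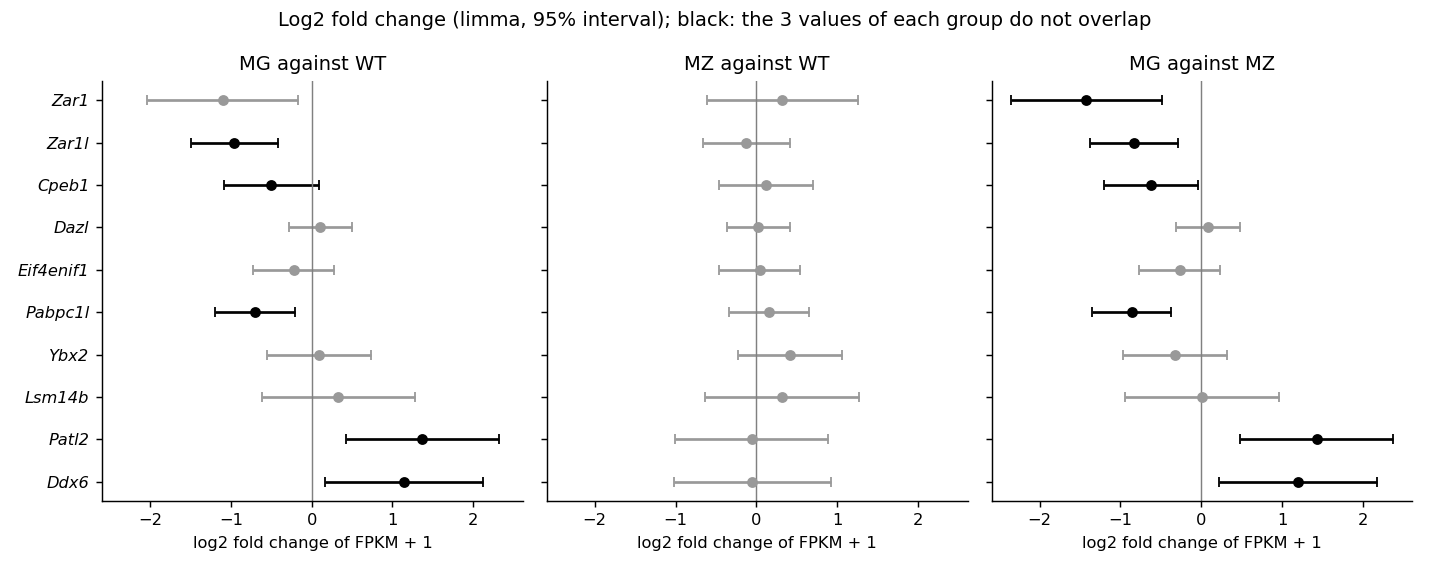
Log2 fold change of FPKM + 1 (points) with its 95% interval (bars) for the 10 genes in the 3 comparisons, from the fit across all tested genes, with black where the 3 values of each group did not overlap. In MZ against WT all 10 intervals include 0, and no gene had an adjusted p under 0.05 in any of the 3 comparisons.

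The authors' deposited table, made with Cuffdiff, calls some of these genes. Its q-values are under 0.05 for 446 of 24228 genes in MG against WT (1.84%), including Zar1 (log2 fold change -0.96, q = 0.036) and Zar1l (-0.90, q = 0.0071). For MG against MZ the authors' deposited table has 4.03% of genes under that threshold, and 3 of the 10 are among them. It lists Zar1 at 1.23 (q = 0.00064), Zar1l at 0.78 (q = 0.0031) and Pabpc1l at 0.86 (q = 0.0011), as MZ over MG. For MZ against WT the authors' deposited table calls 0.351% of genes and 0 of the 10. It gives Patl2 and Ddx6 p-values of 1 in all comparisons, with log2 fold changes of 1.496 and 1.53 for MG against WT. Beside fold changes of this size, such a p-value may mark a gene that was not tested, and is no finding of equal levels. The shares above are of all 24228 genes, those with such p-values included.

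How the libraries are scaled moves the values of MG. With all libraries brought to an equal FPKM sum, the median log2 fold change of all tested genes for MG against WT was 0.36, against 0.04 as deposited, and the 10 genes had a median of 0.32. Relative to the median of all genes, Zar1 had -1.14 as deposited and -1.07 with the same sum, Zar1l -0.999 and -0.93, Pabpc1l -0.75 and -0.68, Cpeb1 -0.55 and -0.47, Patl2 1.33 and 1.37, and Ddx6 1.10 and 1.08. A factor per library moves all genes of that library alike, so these values can hardly change between such scalings. Quantile normalization, which gives all libraries the same distribution, moved the genes unequally. Relative to the median of all genes it gave -0.60 for Zar1, -0.45 for Zar1l, 0 for Cpeb1, -0.58 for Pabpc1l, 0.42 for Dazl, 1.28 for Patl2 and 0.92 for Ddx6, and Zar1l, Cpeb1 and Pabpc1l then overlapped between MG and WT. Taken as values against 0, Zar1, Zar1l and Pabpc1l kept their negative sign and Patl2, Ddx6 and Dazl their positive sign under each of the 3 other scalings, while Eif4enif1 turned to 0.16 with the same sum and to 0.04 with quantile normalization. With the same sum, 1 of the 10 genes was without overlap on the lower side (Zar1l, background 3.22%) and 3 on the higher side (Dazl, Patl2 and Ddx6, background 21.2%). None of the 10 passed there (background 0.611%). For MG against MZ with the same sum, 2 genes were without overlap on the lower side (Zar1 and Pabpc1l, background 4.58%) and 3 on the higher side (Dazl, Patl2 and Ddx6, background 28.1%), and Zar1l (-0.40) and Cpeb1 (-0.19) overlapped. For MZ against WT with the same sum, Zar1l was without overlap on the lower side (-0.17, adjusted p = 0.94, background 6.8%).

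**Figure D3:**
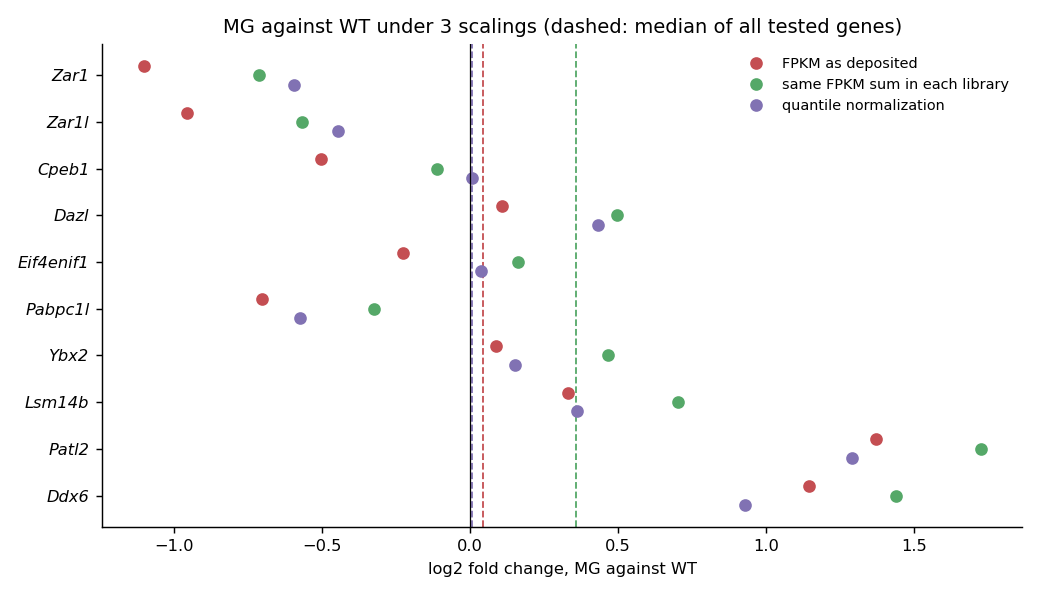
Log2 fold change of MG against WT for the 10 genes with FPKM as deposited (red), with all libraries brought to an equal FPKM sum (green) and with quantile normalization (purple), with dashed lines at the median of all tested genes. Under the same FPKM sum every gene and the median (0.36) move to the right, Cpeb1 lies at -0.11, and Eif4enif1 changes sign to 0.16.

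Ratios of 2 genes within a library do not depend on how that library was scaled. Zar1 per Gdf9, another abundant maternal mRNA, was 0.161, 0.151 and 0.105 in MG oocytes, 0.263, 0.246 and 0.270 in MZ oocytes and 0.323, 0.203 and 0.168 in WT oocytes. All MG ratios lay below all MZ and WT ratios, but the highest MG ratio (0.161) came close to the lowest WT ratio (0.168), and no test of the ratios was made. Zar1 per Zar1l was 6.18, 6.801 and 3.48 in MG, 7.55, 7.44 and 8.89 in MZ and 7.89, 5.26 and 4.76 in WT. All MG ratios lay below all MZ ratios, and WT overlapped both groups. Patl2 per Zar1 was 0.0072, 0.0050 and 0.0170 in MG, 0.0017, 0.00055 and 0.0011 in MZ and 0.0012, 0.0021 and 0.00096 in WT, with all MG ratios above the rest. This pair sets the gene with the highest log2 fold change of the 10 for MG against WT over the gene with the lowest. Its order therefore follows from the values above and adds no further result.

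Several of the 10 genes have paralogs, and their levels were compared within each library. Cpeb1 exceeded Cpeb2, Cpeb3 and Cpeb4 in 9 of 9 libraries. Its ratio to Cpeb3 was 59.7 ± 35.5 in MG, 89.7 ± 27.0 in MZ and 84.8 ± 26.5 in WT (SD, n = 3 each). Pabpc1l exceeded Pabpc1, the poly(A)-binding protein of somatic cells, in 9 of 9 libraries. That ratio was 9.58, 8.47 and 8.52 in MG, 72.9, 121.5 and 17.1 in MZ and 44.2, 25.4 and 61.9 in WT, so all MG ratios were below the others. Against Pabpc4, also a family member of somatic cells, Pabpc1l was higher in 8 of 9 libraries, with ratios of 1.15 ± 0.23 in MG, 1.42 ± 0.39 in MZ and 1.73 ± 0.43 in WT (SD, n = 3 each). Pabpc1 itself had 3.998 ± 0.87 FPKM in MG, 1.77 ± 1.89 FPKM in MZ and 1.53 ± 0.77 FPKM in WT (SD, n = 3 each), so its values rest on few fragments.

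Other pairs stood the other way. Ybx2 was below Ybx1 and below Ybx3 in 9 of 9 libraries, although it is the germ-cell form, and Ybx2 per Ybx1 was 0.682 ± 0.101 in MG, 0.710 ± 0.076 in MZ and 0.405 ± 0.149 in WT (SD, n = 3 each). All 3 MG ratios, from 0.567 to 0.759, and all 3 MZ ratios, from 0.628 to 0.778, were above the WT ratios of 0.245 to 0.540. Ybx1 itself had 45.4 ± 13.3 FPKM in MG, 53.8 ± 11.1 FPKM in MZ and 72.2 ± 0.23 FPKM in WT (SD, n = 3 each). The groups of Ybx2 overlapped, so its ratio to Ybx1 shows no change of Ybx2. No test of the ratios to paralogs was made. Lsm14b was below Lsm14a in 9 of 9 libraries, at 0.208 ± 0.101 of its level in MG, 0.199 ± 0.047 in MZ and 0.195 ± 0.089 in WT (SD, n = 3 each). Patl2 was above Patl1 in 7 of 9 libraries. Near-identical stretches between such relatives can split reads, and how such reads were assigned is not known here.

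**Figure D4:**
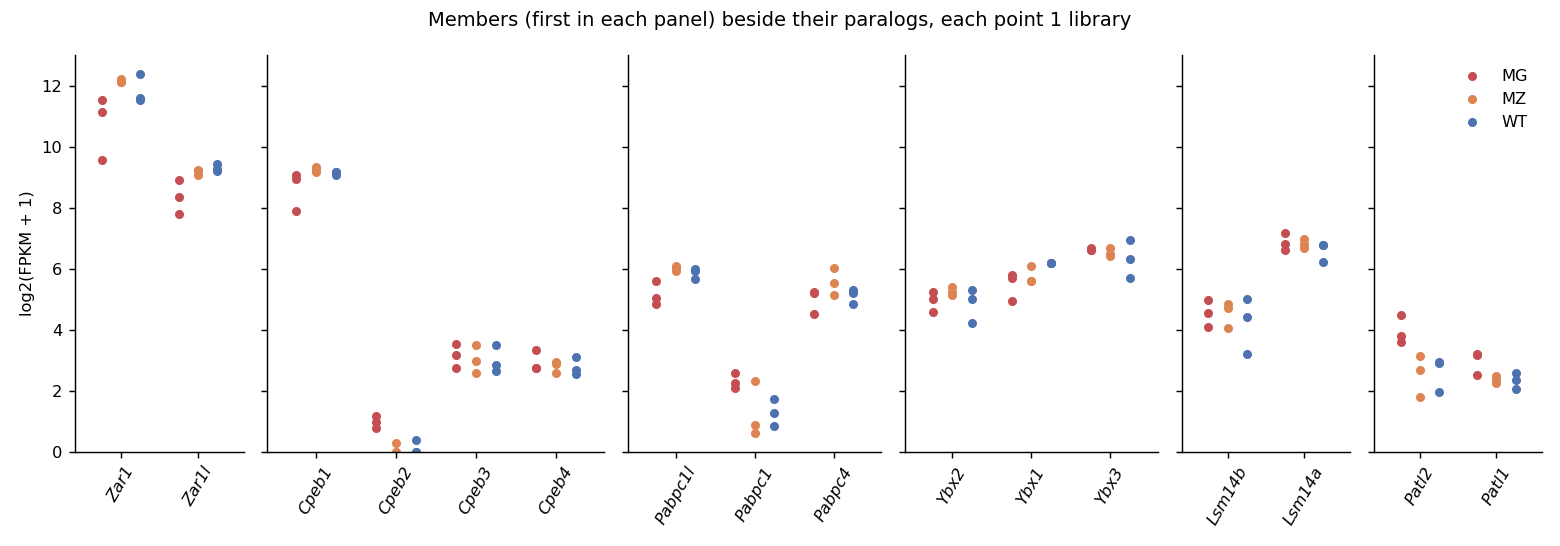
Log2(FPKM + 1) of 6 of the genes (first in each panel; Zar1 with its paralog Zar1l, which is also of the 10) beside their paralogs in MG, MZ and WT, with 1 point per library. Cpeb1 and Pabpc1l stand above Cpeb2, Cpeb3 and Cpeb4 and above Pabpc1 in 9 of 9 libraries, Pabpc1l stands above Pabpc4 in 8 of 9, and Ybx2 and Lsm14b stand below Ybx1, Ybx3 and Lsm14a in 9 of 9.

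The particle's other components and paralogs were taken from a list of 27 genes, of which 25 were tested. For MG against WT, 1 passed as higher (background 0.185%) and 0 as lower (background 0.157%). The list's median log2 fold change was 0.15, and its values ran from -1.31 to 1.92. The gene that passed was Lsm1, a subunit of the Sm-like ring that binds deadenylated mRNA with PAT1 proteins. Lsm1 had 51.6, 52.4 and 47.6 FPKM in MG oocytes, 24.3, 23.4 and 21.0 FPKM in MZ oocytes and 14.9, 24.96 and 13.9 FPKM in WT oocytes. It rose in MG without overlap (log2 fold change 1.49 ± 0.24 SE, adjusted p = 0.036). Without WT 2 it passed (adjusted p = 0.023), and without any other single library it did not, with adjusted p from 0.061 without MG 1 to 0.14 without WT 1. The 2 most abundant genes of the list in WT were Eif4e, the cap-binding protein itself, and Igf2bp2, an RNA-binding protein that stabilises its target mRNAs. Eif4e had 307 ± 14.4 FPKM in MG, 362 ± 27.1 FPKM in MZ and 424 ± 56.4 FPKM in WT (SD, n = 3 each; log2 fold change of MG against WT -0.45, adjusted p = 0.18). Igf2bp2 had 156 ± 14.5 FPKM in MG, 179 ± 14.9 FPKM in MZ and 162 ± 47.1 FPKM in WT (SD, n = 3 each; log2 fold change -0.02, adjusted p = 0.97). For MZ against WT and for MG against MZ, 0 of the 25 passed.

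Of 14 genes of the cytoplasmic polyadenylation machinery and its regulators, which act on tails together with CPEB1, 12 were tested and 0 passed in any comparison. Their log2 fold changes had a median of 0.02 in MG against WT and 0.02 in MZ against WT. The 2 most abundant were Paip2, which holds poly(A)-binding proteins off the tail, and Tacc3, a spindle protein whose relative in Xenopus binds CPEB. Paip2 had 734 ± 75.4 FPKM in MG, 762 ± 15.4 FPKM in MZ and 774 ± 24.4 FPKM in WT (SD, n = 3 each). Tacc3 had 205 ± 45.6 FPKM in MG, 279 ± 11.2 FPKM in MZ and 277 ± 23.2 FPKM in WT (SD, n = 3 each), and its groups did not overlap for MG against WT (log2 fold change -0.45, adjusted p = 0.25).

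All 17 mRNAs on the list of stored mRNAs were tested. For MG against WT, 1 passed as higher (background 0.185%) and 1 as lower (background 0.157%). Of the 17, 11 had negative and 6 positive log2 fold changes, and their median was -0.40, against 0.04 over all tested genes. With the same FPKM sum 9 were negative and 8 positive, and the median was -0.01, against 0.36 over all tested genes. Ddx4, the germ-cell helicase of the vasa family whose mRNA carries the element shown above, had 24.3, 22.0 and 20.7 FPKM in MG oocytes, 3.36, 5.93 and 6.02 FPKM in MZ oocytes and 4.35, 7.16 and 4.94 FPKM in WT oocytes. It rose in MG against WT (log2 fold change 1.87 ± 0.30 SE, adjusted p = 0.036) and was higher in MG than in MZ (1.96 ± 0.30 SE, adjusted p = 0.037; background for higher 0.0741%). Without any single library it no longer passed against WT, with adjusted p from 0.056 without MZ 1 to 0.14 without WT 1. Against MZ it passed without MG 1 (adjusted p = 0.038) or WT 1 (adjusted p = 0.021), and not without any other library (adjusted p from 0.051 without WT 2 to 0.21 without MZ 1).

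Cnot7, a deadenylase that shortens tails and whose own mRNA is stored until maturation, had 177, 209 and 197 FPKM in MG oocytes, 413, 356 and 328 FPKM in MZ oocytes and 441, 352 and 355 FPKM in WT oocytes. It fell in MG against WT without overlap (log2 fold change -0.97 ± 0.17 SE, adjusted p = 0.044). That call was lost in 16 of 18 alternatives. Among these were the fits without any single library (adjusted p from 0.065 without MG 1 to 0.15 without WT 1). The same FPKM sum (-0.58, adjusted p = 0.11) and quantile normalization (-0.54, adjusted p = 0.21) also lost it. It was kept only with a pseudocount of 0.1 (adjusted p = 0.047) and with a filter of 5 FPKM (adjusted p = 0.037). The locus of Cnot7 overlaps Mtmr7 and Vps37a in the table. The 2 most abundant stored mRNAs in WT were Gdf9, an oocyte growth factor, and Btg4, an adaptor of the deadenylase. Gdf9 had 18400, 14940 and 7327 FPKM in MG oocytes, 17186, 18480 and 17781 FPKM in MZ oocytes and 16933, 15466 and 17655 FPKM in WT oocytes, with the lowest value in MG 3. Btg4 had 1890, 1431 and 831 FPKM in MG oocytes, 2409, 2699 and 2364 FPKM in MZ oocytes and 3068, 2305 and 2693 FPKM in WT oocytes. For Btg4 each MG value was below each WT value (log2 fold change -1.03, adjusted p = 0.11). For MZ against WT, 0 of the 17 passed, and their median was -0.03.

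**Figure D5:**
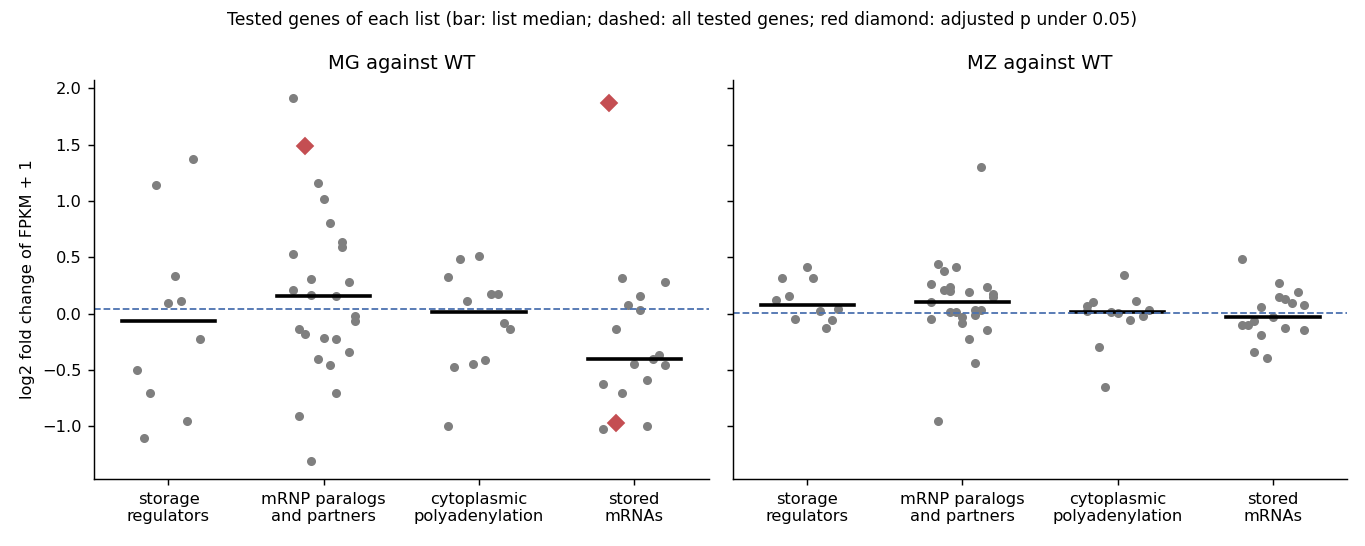
Log2 fold change of FPKM + 1 of each tested gene for MG against WT (left) and MZ against WT (right), by list, with the list's median (bar), the median of all tested genes (dashed) and genes with adjusted p under 0.05 (red diamonds). For MG against WT the diamonds are Lsm1, Ddx4 and Cnot7, and for MZ against WT there are none.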

How the data were processed

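RNA of 9 oocyte libraries (3 MG, 3 MZ and 3 WT) was amplified by Smart-seq2, per the labels' protocols, and sequenced in pairs of 150 bp reads. The authors used TopHat2 2.0.13 on mm10 and took FPKM from Cufflinks 2.2.1, per the submitters' processing notes. The authors deposited an FPKM for each gene in each library, with their Cuffdiff p-value, q-value and log2 fold change for each pair of groups. Use of strand in counting is not stated in the labels. Of 24255 rows, 27 with symbols turned into dates were left out.

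A count model would not suit FPKM. Genes reaching 1 FPKM in 3 or more libraries (10801) were fitted as log2(FPKM + 1) with limma 3.58.1 in R 4.3.3, with a trend of variance on level and all 9 libraries together (6 residual degrees of freedom). Tests were two-sided, with Benjamini-Hochberg adjustment over all tested genes and a threshold of 0.05. Fold changes on this scale understate the change of low genes. Libraries were compared first, and 0 pairs had identical values. The number of fragments was estimated from the steps of low FPKM values in 2220 genes with 1 transcript, taking 200 bp off its length. Of the lowest values, near that of 1 fragment, between 78.4% and 87.7% in each library lay within 10% of the estimate for 1 fragment. Larger numbers of fragments were not checked in this way, and fragment numbers of genes are approximate. Patl2 and Ddx6 rest on few fragments, which limits their precision.

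Coordinates come from GENCODE M21 (GRCm38), 1-based. All 10 genes are named, and of the 3 other lists each gene that passed in any comparison and the 2 with the highest WT mean. The 10 genes and the lists were chosen with earlier results of these data known, so no test over a list was made. The fit was tested on simulated data with known changes of a single size, planted only in genes more abundant than Patl2 and Ddx6. That run therefore gives no measure for smaller changes or for genes as low as these. Other pseudocounts, filters, scalings, variance models and sets of libraries were tried, as was the replicate number as a block. Leaving out each library for the share of the FPKM sum was chosen after seeing the data.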

Additional observations from a re-analysis of the deposited data

Results flagged for a closer look

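For Ddx4, the germ-cell helicase among the stored mRNAs, the level differed between MG and MZ in the fit as reported. What this difference stems from was not tested. On the log2 scale MG differed from WT by 1.87 and MZ from WT by -0.10, and the difference, which equals MG against MZ, was 1.96 (limma adjusted p = 0.0365). Ddx4 was higher in 3 of 3 MG libraries than in each MZ and WT library. The call was lost in 10 of 18 alternatives, namely with a pseudocount of 0.1 (adjusted p = 0.069), without a filter (adjusted p = 0.062), without a variance trend (adjusted p = 0.065) and without 7 of the 9 libraries in turn.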

How the results depend on the processing

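None of the 10 genes passed in the 3 comparisons as reported, and of 537 values under the 18 alternatives 2 passed. These were Zar1l (adjusted p = 0.038) and Pabpc1l (adjusted p = 0.039) for MG against MZ without MG 1, where 210 genes of the whole table passed. Of the 30 fold changes of the 10 genes, 16 kept their sign and their side of the threshold in each alternative run. Ddx6 was left out by the filter of 5 FPKM. Some values changed sign, among them Cpeb1 (-0.50) and Eif4e (-0.45) for MG against WT and Gdf9 (-0.50) for MG against MZ, and the cause was not tested. With the same FPKM sum, log2 fold changes that changed sign were 0.16 (Eif4enif1), 0.37 (Igf2bp2) and 0.31 (Paip2) for MG against WT, -0.019 (Dazl), -0.0025 (Eif4enif1) and -0.028 (Tacc3) for MZ against WT, and 0.093 (Ybx2), 0.17 (Eif4enif1), 0.20 (Eif4e), 0.24 (Igf2bp2) and 0.37 (Paip2) for MG against MZ. With quantile normalization they were 0.0086 (Cpeb1), 0.04 (Eif4enif1), 0.016 (Eif4e), 0.33 (Igf2bp2) and 0.50 (Paip2) for MG against WT, -0.092 (Gdf9) for MZ against WT, and 0.00042 (Eif4enif1), 0.29 (Eif4e), 0.092 (Gdf9), 0.17 (Igf2bp2) and 0.55 (Paip2) for MG against MZ. With upper quartile scaling they were 0.023 (Igf2bp2) for MG against WT and 0.0012 (Paip2) for MZ against WT.

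Leaving out 1 library in turn changed signs within these ranges. For MG against WT they were -0.22 to 0.32 (Ybx2), -0.17 to 0.73 (Lsm14b, 0.33 as reported), -0.35 to 0.021 (Eif4enif1) and -0.18 to 0.20 (Igf2bp2). For MZ against WT they were -0.085 to 0.098 (Dazl), -0.38 to 0.31 (Patl2), -0.19 to 0.72 (Lsm14b), -0.073 to 0.18 (Eif4enif1), -0.31 to 0.33 (Ddx6), -0.16 to 0.040 (Cnot7), -0.22 to 0.13 (Ddx4), -0.045 to 0.00074 (Paip2) and -0.053 to 0.065 (Tacc3). For MG against MZ they were -0.23 to 0.23 (Lsm14b) and -0.13 to 0.018 (Paip2).

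The number of genes called over the whole table, which is the background here, moved more. For MG against WT it was 37 (20 higher and 17 lower in MG) as reported, 17 without a filter, 66 with the same FPKM sum (61 higher and 5 lower), 21 (16 higher, 5 lower) after quantile normalization, 30 with upper quartile scaling (20 higher and 10 lower), 5 with only the compared groups in the fit and 3 to 24 without 1 library. It was 32 without a variance trend (27 higher and 5 lower). For MZ against WT it was 4 (3 higher and 1 lower) as reported, 2 with a pseudocount of 0.1, 2 without a filter, 0 with a filter of 5 FPKM (450 genes at an unadjusted p under 0.05 by limma), 1 with the same FPKM sum (1 higher and 0 lower), 1 (higher) after quantile normalization, 7 without a variance trend and 0 to 6 without 1 library. For MG against MZ it was 14 (8 higher and 6 lower) as reported, 6 with a pseudocount of 0.1, 9 without a filter, 31 with the same FPKM sum (25 higher and 6 lower), 13 after quantile normalization (9 higher, 4 lower), 9 without a variance trend, 100 with only the compared groups and 0 to 214 without 1 library (210 without MG 1 and 214 without WT 1).

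The replicate numbers are shared by the groups, and deviations of same-numbered libraries correlated at -0.07 to 0.07. Those of differently numbered libraries correlated at -0.11 to 0.08, so this check gave no sign of pairing by number. With 3 libraries a group it cannot show that there was none. With a replicate block, 13 genes were called for MG against WT, 0 for MZ against WT (768 at an unadjusted p under 0.05) and 159 for MG against MZ, and 0 of the 10 genes passed. The block took Lsm1 (adjusted p = 0.069), Ddx4 (adjusted p = 0.070) and Cnot7 (adjusted p = 0.075) for MG against WT over the threshold. Depth limits Patl2 and Ddx6, where 1 fragment is a visible step in FPKM.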
